A study of Mus musculus with 12 samples.

Results

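Nnt, Wdfy1, Entpd4, Nlrp12 and Cyfip2 are genes known to carry sequence or copy differences between C57BL/6 substrains, the separately bred colonies of the most used laboratory mouse strain. They were listed by symbol for a check of the genetic background of HSS9 KO mice and are 5 of the 48526 genes of the count table, matched through their Ensembl identifiers to a GENCODE annotation of GRCm38. They were selected on measured values too, since the genotype differences in read counts of these libraries were known when the 5 were listed, so their KO against WT values are given as a description without a test, whereas their responses to LPS were tested. The libraries were total RNA from bone marrow-derived macrophages (BMDMs) grown for 6 days in L929-conditioned medium. The 12 libraries form 4 groups of 3: WT UT, HSS9 KO UT, WT LPS and HSS9 KO LPS, where UT cells received PBS and LPS, a bacterial cell wall component, was given for 6 hr. KO mice carry a deletion upstream of Tnf, on chromosome 17, in the region labelled HSS9 (the TNF-9 enhancer of the study). None of the 5 genes lies on that chromosome. Mice were males of 7 to 10 weeks by the methods of the study. The labels call the WT animals HSS9+/+ littermates, whereas the methods describe purchased C57BL/6 mice beside KO mice kept as homozygous breeding pairs, and neither names the substrain. Genotype and breeding origin therefore cannot be told apart here.

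C57BL/6J and C57BL/6N mice were separated many generations ago and have since fixed different mutations. Nnt encodes the proton-driven transhydrogenase of the inner mitochondrial membrane that makes NADPH for glutathione and thioredoxin reduction, and C57BL/6J mice are known to lack an internal block of its exons. Wdfy1 encodes an endosomal FYVE and WD40 protein that links TRIF to TLR3 and TLR4, the receptors of double-stranded RNA and LPS. Entpd4 encodes a nucleoside diphosphatase of the Golgi and lysosome. Nlrp12 encodes a NOD-like receptor that dampens NF-kB signalling, with a missense change known in C57BL/6J. Cyfip2 encodes a subunit of the WAVE complex, which drives actin branching downstream of Rac, with a missense change known in C57BL/6N.

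The reference assembly is itself C57BL/6J, and this matters for Nnt and for Entpd4. Nnt (ENSMUSG00000025453.16) lies at chr13:119335448-119408997 on the minus strand, and its longest coding transcript, Nnt-202, has 17 exons and 2505 coding bases. The exon block known to be missing in C57BL/6J follows the sixth exon, so that the assembly joins exon 6 (chr13:119386579-119386667) directly to exon 7 of that transcript (chr13:119381676-119381863). The join is shown from base 894 to base 953 of Nnt-202 with the 2 bases on each side of it in capitals, because reads from an intact allele would leave the reference at this point.
Nnt-202: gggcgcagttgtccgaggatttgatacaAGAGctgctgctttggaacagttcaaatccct
Gene counts hold no read sequence, so they do not show which Nnt allele a library carried, and reads from exons that the assembly lacks had no place to be counted.

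Entpd4 (ENSMUSG00000095463.8, chr14:69337174-69367270, plus strand) has a copy on the same strand, Entpd4b (ENSMUSG00000022066.16, chr14:69555424-69585520). Their longest coding transcripts are both 3589 bases long with 0 mismatches, and all 8304 stretches of the length of a read over the transcripts of Entpd4 also occur in those of Entpd4b. The first 60 coding bases are shown, with the start codon in capitals, to make plain that a read cannot be placed in one copy rather than the other.
Entpd4: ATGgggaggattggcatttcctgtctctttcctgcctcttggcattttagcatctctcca
Entpd4b: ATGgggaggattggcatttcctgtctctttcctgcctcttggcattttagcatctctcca
The other 3 genes lie at chr1:79702262-79776143 (Wdfy1, ENSMUSG00000073643.11), chr7:3218784-3249740 (Nlrp12, ENSMUSG00000078817.4) and chr11:46193850-46312859 (Cyfip2, ENSMUSG00000020340.16), all on the minus strand.

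Library totals ranged from 26154533 to 36423921 counts. All 7 macrophage markers (Adgre1, Csf1r, Cd68, Itgam, Lyz2, Mertk and Fcgr1) were detected in every group, with a summed level of 24434 to 33679 CPM (counts scaled to library size). Summed levels of the 8 neutrophil markers were 20.5 to 22.0 CPM in WT UT, 42.6 to 48.1 in KO UT, 50.5 to 79.6 in WT LPS and 67.3 to 76.8 in KO LPS, and Ly6g was at 0 in all 12 libraries. Markers of B cells summed to at most 1.79 CPM and those of T cells to at most 8.33, the latter mostly Lck after LPS, with Cd3e at 0 in all LPS libraries. The 6 stromal markers summed to 2.07 to 5.67 CPM in WT UT, KO UT and WT LPS and to 7.13 to 8.49 in KO LPS. Small structural RNAs took 3.04 to 3.30% of counts in WT UT, 6.67 to 8.01% in KO UT, 4.07 to 6.93% in WT LPS and 3.26 to 3.45% in KO LPS. Tnf, the gene beside the deletion, was at 15.3 ± 0.757 CPM in WT UT (SD, n = 3 here and below) and 9.71 ± 0.727 in KO UT, and at 889.7 ± 57.4 in WT LPS and 432 ± 15.2 in KO LPS. It was lower in KO in both treatments (log2 fold change -0.66, adjusted p = 1.29e-06, UT; -1.04, adjusted p = 2.76e-10, LPS). Tnf lies outside the deletion, so its level is no direct check of it.

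Of the 5 genes, Nnt, Wdfy1 and Cyfip2 were expressed in these macrophages, and Entpd4 and Nlrp12 were at or near 0. Nnt and Wdfy1 were higher in KO than in WT libraries in both treatments, and Cyfip2 was slightly lower. In bulk RNA, fewer cells that express a gene and less of its RNA per cell cannot be told apart. Levels below are CPM on effective library sizes after TMM scaling, and each series of 3 values follows the batch numbers 1 to 3 of the labels.

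Nnt was at 26.9, 26.3 and 24.2 CPM in WT UT (25.8 ± 1.45) and at 49.2, 53.1 and 51.2 in KO UT (51.2 ± 1.95). After LPS it was at 16.9, 16.3 and 17.9 CPM in WT (17.0 ± 0.835) and at 30.6, 29.96 and 30.7 in KO (30.4 ± 0.422). Every KO library lay above every WT library of its treatment, and even the KO LPS libraries lay above the WT UT libraries. The KO against WT log2 fold change was 0.99 (SE 0.0630) in UT, a 1.99-fold difference, and 0.84 (SE 0.0703), or 1.79-fold, after LPS. Within batches the log2 ratio was 0.87, 1.02 and 1.08 in UT and 0.86, 0.88 and 0.78 after LPS. The raw counts behind these values were 1136 to 1191 in WT UT, 1703 to 2026 in KO UT, 362 to 454 in WT LPS and 798 to 840 in KO LPS, all far above the floor of 3 counts.

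Wdfy1 was at 25.8, 22.1 and 23.2 CPM in WT UT (23.7 ± 1.89) and at 44.2, 41.6 and 41.0 in KO UT (42.3 ± 1.69). After LPS it was at 67.8, 68.2 and 79.7 CPM in WT (71.9 ± 6.77) and at 95.7, 87.2 and 89.4 in KO (90.8 ± 4.46). The genotypes did not overlap in either treatment, but the gap was wide in UT and narrow after LPS, where the highest WT library came close to the lowest KO library. The log2 fold change was 0.83 (SE 0.0729), or 1.78-fold, in UT and 0.34 (SE 0.0701), or 1.26-fold, after LPS. Within batches it was 0.78, 0.91 and 0.82 in UT and 0.50, 0.36 and 0.17 after LPS. When the small RNA share entered the model as a covariate, a fit chosen after seeing the data, the log2 fold changes were 0.48 and 0.51. Wdfy1 overlaps the start of Mrpl44, a mitochondrial ribosomal protein gene on the opposite strand with 620 to 928 counts in the libraries. Whether the counting used the strand is not known. Mrpl44 was higher in KO UT by 0.27 (adjusted p = 0.00941) and differed by 0.03 after LPS (adjusted p = 0.867). Its part in the Wdfy1 values was not tested.

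Cyfip2 was at 51.6, 48.5 and 48.6 CPM in WT UT (49.5 ± 1.75) and at 39.6, 39.2 and 41.8 in KO UT (40.2 ± 1.39). After LPS it was at 32.9, 31.5 and 27.6 CPM in WT (30.7 ± 2.72) and at 28.6, 25.8 and 23.0 in KO (25.8 ± 2.81). The genotypes were apart in UT and overlapped after LPS, where 1 KO library lay above the lowest WT library. The log2 fold change was -0.30 (SE 0.0734) in UT and -0.25 (SE 0.0805) after LPS, and with the small RNA share as a covariate it was 0.02 in UT and -0.40 after LPS, so that the UT direction did not hold in that fit. Within batches it was -0.38, -0.31 and -0.22 in UT and -0.20, -0.29 and -0.26 after LPS. A pseudogene inside Cyfip2 on the same strand, Gm12568, had 1 to 9 counts.

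Nlrp12 had 0, 0 and 3 counts in WT UT, 0, 1 and 3 in KO UT, and 0 in all 6 LPS libraries. Entpd4 had 0 counts in 11 libraries and 3 in the remaining one, KO UT of batch 3. A count of 3 is worth 0.0638 to 0.141 CPM in these libraries, so neither gene passed the filter on low counts, and a difference between genotypes was not detectable at this depth. Entpd4b, the copy of Entpd4, had 8, 2 and 41 counts in WT UT, 3, 3 and 8 in KO UT, 1, 2 and 6 in WT LPS and 1, 2 and 1 in KO LPS. Since the copies share every stretch of read length and the handling of reads that map to several places is not stated, the level of Entpd4 in these cells is unknown. Such limits cover counting error only.

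**Figure D1:**
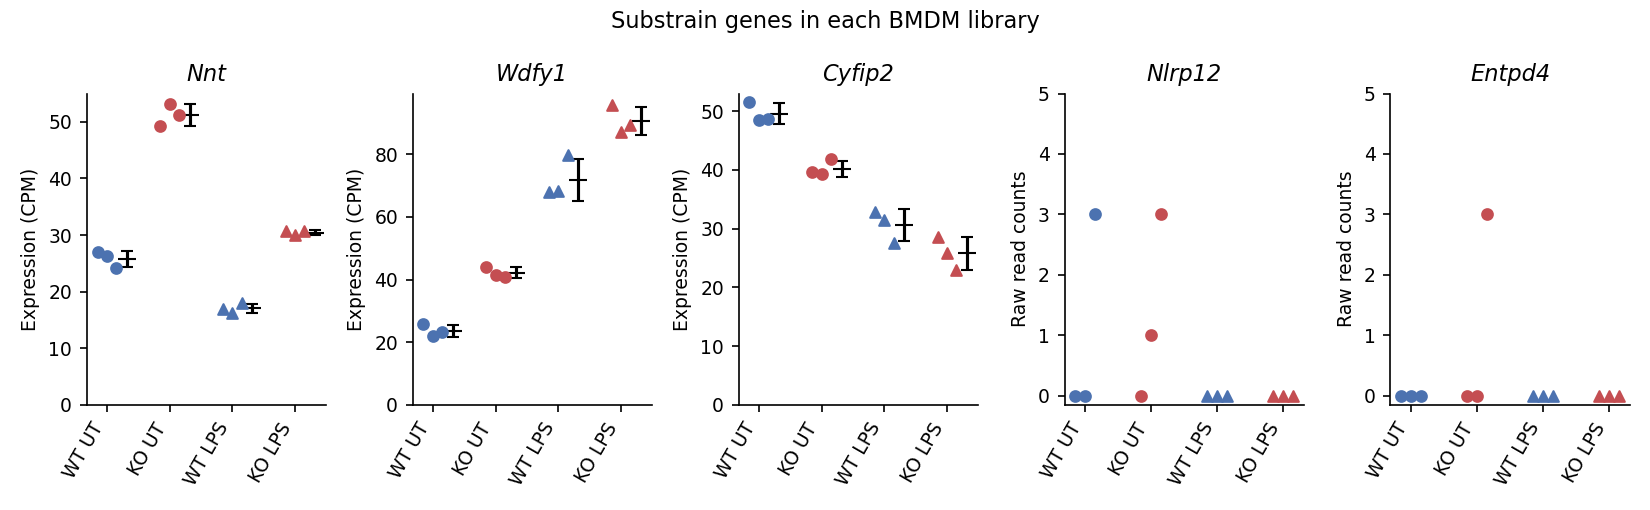
Level of each substrain gene in each of the 12 BMDM libraries, as CPM for Nnt, Wdfy1 and Cyfip2 and as raw counts for Nlrp12 and Entpd4 (y axes, linear, from 0), by group on the x axes. Circles are UT and triangles LPS, WT in blue and KO in red, with the mean and SD as bars for the CPM panels. KO libraries of Nnt sit between 49.2 and 53.1 CPM in UT against 24.2 to 26.9 in WT, whereas Cyfip2 overlaps after LPS and no library exceeds 3 counts of Nlrp12 or Entpd4.

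Set beside the whole table, KO and WT libraries did not overlap for 40.8% of the 15523 genes tested in UT and for 29.1% after LPS. A call needed an adjusted p under 0.05 together with a log2 fold change beyond 1 or -1. By these criteria 1.82% of genes were called in UT and 1.25% after LPS, and 0 of the 3 expressed substrain genes were. By adjusted p alone those shares were 23.8% and 14.3%, and all 3 passed in both treatments, 2 higher and 1 lower in KO, beside 14.1% of all genes higher and 9.69% lower in UT and 7.78% higher and 6.54% lower after LPS. These contrasts took part in the choice of the genes, so the counts are no test of them and nothing is read from them. Other measures moved with genotype as well. The small RNA share was higher in KO than in WT libraries in UT and lower after LPS, without overlap in either. Of the neutrophil markers, 4 of 6 tested were called higher in KO UT and 0 in KO LPS, and of the stromal markers, 2 of 5 in KO UT and 4 of 5 in KO LPS. The part of these markers in the values above was not tested. The log2 fold change of Nnt in UT was just under 1, and it was 0.94 to 1.02 over the leave-one-out fits, above 1 without WT UT replicate 1, WT UT replicate 2 or KO UT replicate 1. By the size of the change, Nnt was above 95.6% of tested genes in UT and 93.0% after LPS, Wdfy1 above 93.4% and 73.7%, and Cyfip2 above 66.6% and 63.3%. The same changes took part in the choice of the genes, so these ranks only describe them.

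**Figure D2:**
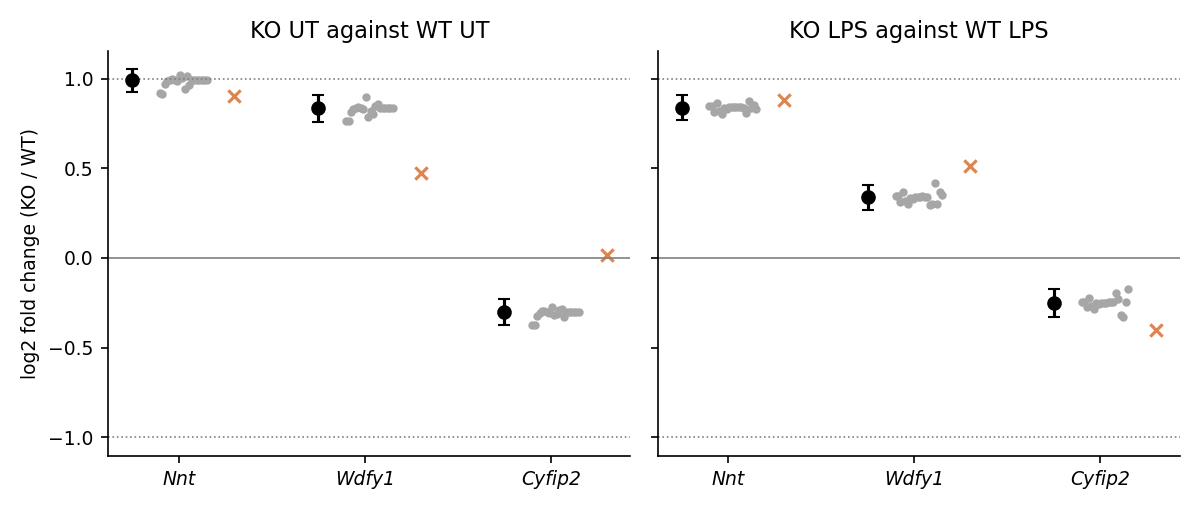
KO against WT log2 fold change (y axis) of the 3 expressed substrain genes in UT and after LPS. Black points are the reported values with 1 SE, grey points the fits with other scalings, filters, tools, a replicate block or a library left out, orange crosses the fit with the small RNA share as a covariate, and dotted lines a log2 fold change of 1 or -1. Nnt stays between 0.90 and 1.02 in UT, whereas the covariate moves Wdfy1 from 0.83 to 0.48 and Cyfip2 from -0.30 to 0.02.

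LPS moved the 3 expressed genes in different directions, and each moved the same way in both genotypes. Wdfy1 rose 3.03-fold in WT (log2 fold change 1.60, SE 0.0733, adjusted p = 1.41e-14) and 2.15-fold in KO (1.10, SE 0.0708, adjusted p = 5.50e-12). Nnt fell, by 0.60 on the log2 scale in WT (SE 0.0691, adjusted p = 9.07e-08) and by 0.75 in KO (SE 0.0640, adjusted p = 7.38e-10). Cyfip2 fell by 0.69 in WT (SE 0.0764, adjusted p = 4.83e-08) and by 0.64 in KO (SE 0.0777, adjusted p = 2.00e-07). No LPS library overlapped a UT library of its genotype for any of the 3, as for 74.8% of all genes in WT and 76% in KO. By adjusted p alone 1 of the 3 rose and 2 fell in each genotype, where 73.3% of all genes passed in WT (38% higher, 35.3% lower) and 72.8% in KO (35.1% higher, 37.7% lower). Only Wdfy1 passed the call criteria, in both genotypes, against 37.8% of all genes in WT and 37% in KO. Under upper-quartile scaling, which shifted the median response of all genes by -0.18, the Wdfy1 response in KO was 0.92 and no longer called.

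The responses of WT and KO share the libraries of the genotype contrasts, so their difference is a description too. The Wdfy1 response was smaller in KO, with a difference of -0.50 on the log2 scale (SE 0.101). With the small RNA share as a covariate it was 0.04. For Nnt the difference was -0.15 (SE 0.0943) and for Cyfip2 0.05 (SE 0.109).

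**Figure D3:**
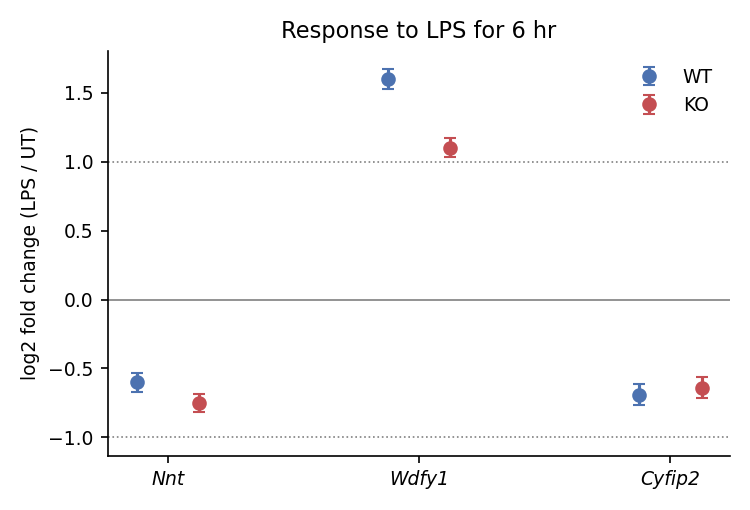
Response to LPS for 6 hr (log2 fold change of LPS over UT, y axis) of the 3 expressed substrain genes, WT in blue and KO in red, with 1 SE. Wdfy1 lies above the dotted line at 1 in both genotypes, at 1.60 and 1.10, and Nnt and Cyfip2 lie between 0 and -1.

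Levels can be set against each other only per length. Per kb of the main coding transcript, mean levels in WT UT were 7.50 CPM for Cyfip2, 7.44 for Nnt and 5.21 for Wdfy1, where the ranges of Cyfip2 and Nnt overlapped. With the length of all annotated exons they were 6.97 for Cyfip2, 3.66 for Nnt and 3.65 for Wdfy1, where Cyfip2 stood apart and Nnt and Wdfy1 overlapped. In KO UT the order was Nnt at 14.8, Wdfy1 at 9.29 and Cyfip2 at 6.08 CPM per kb, with no overlap between neighbours. After LPS Wdfy1 came first in both genotypes, at 15.8 CPM per kb in WT and 19.9 in KO, ahead of Nnt at 4.92 and 8.79 and of Cyfip2 at 4.64 and 3.91. Nnt and Cyfip2 overlapped in WT LPS, and with the length of all annotated exons in place of the transcript Cyfip2 stood above Nnt there, at 4.32 against 2.42. With those lengths Nnt was still first in KO UT, Wdfy1 first after LPS in both genotypes and Cyfip2 last in KO in both treatments.

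The genes most like each expressed member over the 4 group means were found among 9084 protein-coding genes whose mean level reached 5 CPM, by the root mean square difference of log2 levels centred on their own mean. For Nnt they were C1qc at 0.0565 and C1qb at 0.132, which encode chains of complement C1q, and Cltb, a clathrin light chain, at 0.192. For Wdfy1 they were Pf4, a platelet chemokine, at 0.0736, Ctla2a at 0.0892 and Rhoc, a small GTPase, at 0.0941. For Cyfip2 they were Uck2, a uridine-cytidine kinase, at 0.0265, Ampd2, an AMP deaminase, at 0.0346 and Zfp955b at 0.0413. These rankings rest on 4 points each and describe likeness of profile only.

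Of other genes with known differences among C57BL/6 colonies, 0 of the 5 tested passed the call criteria in either genotype contrast. Over all genes 1.82% were called in UT and 1.25% after LPS, so 0 calls do not set this short list apart. The list held 8 genes, among them Crb1, the retinal degeneration gene of C57BL/6N, Dock2, a Rac activator duplicated in a C57BL/6N line, Mmrn1, deleted in a C57BL/6J line, Ide and Fgfbp3, duplicated in C57BL/6J colonies, Gabra2 and Entpd4b. Of the 8 genes 5 were tested, and Crb1, Gabra2 and Entpd4b did not pass the filter on low counts. Mmrn1 had 7 to 52 counts, above 0 in every library, and its KO against WT log2 fold change was 0.32 in UT (adjusted p = 0.531) and 0.80 after LPS (adjusted p = 0.137). Ide, which encodes insulin-degrading enzyme, differed by -0.13 in UT (adjusted p = 0.182) and was higher in KO after LPS, by 0.36 (SE 0.0830, adjusted p = 0.00645), a value of 0.18 with the small RNA share as a covariate (adjusted p = 0.347). Dock2 was lower in KO UT, at -0.14 (adjusted p = 0.0452), a value of 0.01 with the small RNA share as a covariate, and differed by 0.11 after LPS (adjusted p = 0.153). Fgfbp3 differed by 0.12 (adjusted p = 0.870) and 0.20 (adjusted p = 0.845). Crb1 and Gabra2 had at most 1 count in any library. LPS lowered Ide, at -1.75 in WT (adjusted p = 7.67e-15) and -1.26 in KO (adjusted p = 1.49e-12), and Dock2, at -1.06 (adjusted p = 3.19e-14) and -0.81 (adjusted p = 3.54e-12).

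Neighbouring genes were read as well, since linked genes travel with an inherited segment. Within 250 kb of the 5 genes the table holds 100 genes, of which 25 were tested. Called were 1 in UT and 2 after LPS, against 1.82% and 1.25% of all genes. By adjusted p alone 4 of the 25 were higher and 3 lower in KO UT, beside 14.1% and 9.69% of all genes, and 5 higher and 5 lower in KO LPS, beside 7.78% and 6.54%. The called neighbours were Adam19, beside Cyfip2, in both treatments, and Loxl2, near Entpd4, after LPS.

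Adam19 encodes a membrane metalloprotease of the ADAM family and lies at chr11:46055992-46147343, on the plus strand, at -46.5 kb from Cyfip2 (negative toward lower coordinates). It was at 3.42, 2.63 and 3.15 CPM in WT UT and at 10.6, 10.6 and 9.84 in KO UT. After LPS it was at 3.06, 3.01 and 2.55 CPM in WT and at 16.5, 15.4 and 16.2 in KO, so that all KO libraries lay far above all WT libraries. The log2 fold change was 1.76 in UT (SE 0.114, adjusted p = 5.63e-10) and 2.48 after LPS (SE 0.125, adjusted p = 2.67e-11), and 1.66 to 1.84 and 2.40 to 2.53 over the alternatives. Cyfip2 next to it moved the other way, by -0.30 and -0.25. LPS raised Adam19 in KO (0.63, adjusted p = 1.16e-05; 0.56 and 0.183 with the small RNA share as a covariate), and its response in WT was -0.09 (adjusted p = 0.583).

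Loxl2, a lysyl oxidase that crosslinks collagen, lies 241.8 kb from Entpd4 and had 18, 9 and 7 counts in WT LPS and 42, 22 and 46 in KO LPS. Its log2 fold change was 1.52 (SE 0.438, adjusted p = 0.0244) after LPS and 0.27 in UT (adjusted p = 0.730). The LPS call was lost when WT LPS replicate 2 or 3 or KO LPS replicate 1 or 3 was left out, where the log2 fold change was still 1.42, 1.33, 1.39 and 1.35 (adjusted p = 0.0917, 0.0982, 0.0907 and 0.101). With the small RNA share as a covariate it was 0.82 after LPS (adjusted p = 0.539) and 1.86 in UT. Stromal markers moved with it, 4 of 5 tested being called higher in KO LPS. Over all genes 1.25% were called there, in either direction. The part of these markers in the Loxl2 result was not tested. Chosen after their values were seen, Havcr2, the immune checkpoint gene at 142.1 kb from Cyfip2, was lower in KO, at -0.44 in UT (adjusted p = 6.31e-05; -0.55, adjusted p = 0.148, with the small RNA share as a covariate) and -0.72 after LPS (adjusted p = 3.86e-05), and Slc25a37, the mitochondrial iron carrier at -52.1 kb from Entpd4, was lower too, at -0.51 (adjusted p = 5.02e-06) and -0.41 (adjusted p = 8.14e-05). Close to Nnt, Paip1 at 19.6 kb, also chosen after its values were seen, was higher in KO LPS by 0.27 (adjusted p = 0.0112). It differed by 0.09 in UT (adjusted p = 0.398).

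**Figure D4:**
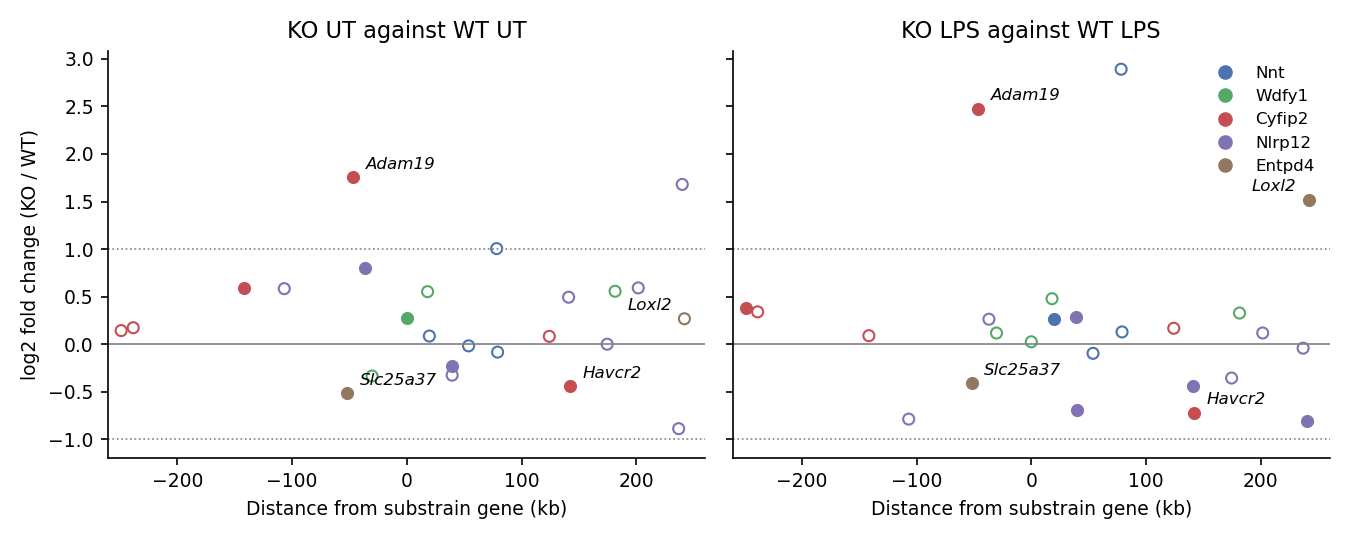
KO against WT log2 fold change (y axis) of the 25 tested genes within 250 kb of a substrain gene, by distance in kb (x axis, negative toward lower coordinates), coloured by the substrain gene they lie near. Filled points have an adjusted p below 0.05, open points do not, and dotted lines mark 1 and -1. Adam19 stands at 1.76 in UT and 2.48 after LPS, and the open point above it after LPS did not pass the test.

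Genes that work with the 5 were read from lists of related genes, and 0 were called between genotypes in either treatment. Over all genes 1.82% were called in UT and 1.25% after LPS, so 0 calls in lists this short do not set them apart. Members named here other than the 5 were picked as examples after their values were seen. Of 11 tested genes of mitochondrial NADPH and redox control, the setting in which Nnt acts, 5 were higher in KO UT and 0 lower by adjusted p, against 14.1% and 9.69% of all genes, and 2 were higher and 0 lower in KO LPS, beside 7.78% and 6.54%. The glutathione peroxidase Gpx4 was among them at 0.68 in UT (adjusted p = 2.20e-06), with 0.01 after LPS (adjusted p = 0.928). Prdx3, the mitochondrial peroxiredoxin, was at 0.31 (adjusted p = 0.00109) and 0.21 (adjusted p = 0.0403). The list median was 0.14 in UT and 0.00 after LPS, beside 0.00 and -0.01 for all genes. Idh2, another mitochondrial source of NADPH, fell with LPS by 1.40 in WT (adjusted p = 5.19e-14) and by 1.77 in KO (adjusted p = 6.35e-16), the direction of Nnt, while the superoxide dismutase Sod2 rose by 5.11 and 5.02.

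Of 10 genes of the WDFY family and the TLR3 and TLR4 arm through TRIF, which hold the partners of Wdfy1, 0 were higher and 3 lower in KO UT, beside 14.1% and 9.69% of all genes, and 1 was higher and 0 lower in KO LPS, beside 7.78% and 6.54%. Tlr3 was lower in KO UT, at -0.51 (adjusted p = 5.38e-05), where Wdfy1 was higher, and Tlr4 was higher in KO LPS by 0.25 (adjusted p = 0.0186). Ticam1, the gene of TRIF, was at -0.35 in UT (adjusted p = 0.0465). With LPS 7 of the 10 rose and 2 fell by adjusted p in each genotype, where 73.3% of all genes passed in WT and 72.8% in KO. Tlr3 rose by 3.33 in WT and 3.66 in KO and the kinase gene Tbk1 by 1.53 and 1.55. The LPS receptor gene Tlr4 fell by 0.87 in WT and by 0.48 in KO. Of the paralogs of Wdfy1, Wdfy2 and Wdfy3 rose by 0.43 and 0.32 in WT, and Wdfy4 fell by 0.65 (adjusted p = 3.47e-10) there and by 0.61 in KO (adjusted p = 9.90e-10).

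Of the nucleotidases related to Entpd4, 5 of 9 were tested, 0 differed between genotypes in UT by adjusted p, where 14.1% of all genes were higher and 9.69% lower, and 1 was higher and 0 lower in KO LPS, beside 7.78% and 6.54%. The 1 was Entpd7, at 0.21 (adjusted p = 0.0209). Entpd1, the ATP-hydrolysing CD39, fell with LPS by 2.43 in WT and by 2.24 in KO, and 4 of the 5 fell in each genotype, beside 35.3% of all genes in WT and 37.7% in KO. Of 10 tested NOD-like receptor genes, the family of Nlrp12, 0 were higher and 5 lower in KO UT, beside 14.1% and 9.69% of all genes, and 0 higher and 3 lower in KO LPS, beside 7.78% and 6.54%. Nod1 was at -0.53 (adjusted p = 1.46e-05) and -0.26 (adjusted p = 0.00358), and Nlrc5, the regulator of MHC class I genes, at -0.57 (adjusted p = 5.54e-08) and -0.27 (adjusted p = 0.000649). The list median was -0.23 in UT and -0.16 after LPS.

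Of 10 tested genes of the WAVE complex and Rac, the partners of Cyfip2, 1 was higher and 2 lower in KO UT, beside 14.1% and 9.69% of all genes, and 4 were higher and 1 lower in KO LPS, beside 7.78% and 6.54%. Cyfip1, the paralog that can take the place of Cyfip2 in the complex, was at 0.00 in UT (adjusted p = 0.980) and at 0.32 after LPS (adjusted p = 0.000791). It rose with LPS by 1.68 in WT and by 2.00 in KO (adjusted p = 1.56e-16 and 8.00e-18), whereas Cyfip2 fell. Brk1, the smallest subunit, was higher in KO UT by 0.51 (adjusted p = 8.00e-06), and Abi3 was lower, at -0.48 (adjusted p = 0.000152).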

How the data were processed

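Total RNA of 12 BMDM libraries (4 groups of 3) was sequenced as stranded paired-end reads. The authors aligned them to GRCm38 with HISAT2 2.1.0 and counted reads per gene with featureCounts 2.0.0; the deposited values are raw counts, and the annotation release, strand setting and handling of multi-mapping reads are not given in the sources used here. Identifiers were matched to GENCODE M21 (48144 of 48526; 382 unmatched), in which some genes carry later versions. Counts were tested with edgeR 4.0.16 (quasi-likelihood, TMM, limma 3.58.1, R 4.3.3) in 1 model of 4 group means over all 12 libraries, after filterByExpr (minimum count 10, minimum total 15) had kept 15523 genes with 99.96% of counts, and p-values were adjusted over all of them (Benjamini-Hochberg). Libraries of a group varied with a common biological coefficient of variation of 0.0712. Fold changes are in log2 units, and a call needs an adjusted p under 0.05 with a change beyond 1 or -1. The code was tested on simulated data.

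The substrain genes and the lists were chosen with earlier results of these data known, and so are not independent of them. Named were the 5 genes, Tnf, the other substrain genes, called neighbours or list members, and the 3 most alike genes of each. Named too were cell type markers and genes that overlap one of the 5. Others are marked in the text. Alternatives were DESeq2 1.42.0, RLE and upper-quartile scaling, other filters, protein-coding genes only, the compared groups only, a replicate block, each library left out and, chosen after seeing the data, the small RNA share as a covariate. The labels give the replicate number as a batch number, so same-numbered libraries are paired by label. Deviations of same-numbered libraries correlated between -0.0631 and 0.0373 in 18 pairs, with 0 above 0.1. No replicate pair agreed within counting noise (lowest chi-square per degree of freedom 3.8). Separate cultures or animals are not stated for replicates, so p-values measure the spread between these libraries. Promoter and protein sequences were not used here, and 1 gene of the list of other substrain genes is not reported here.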

Additional observations from a re-analysis of the deposited data

Results flagged for a closer look

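The genotypes responded to LPS to different extents in 4 named genes that are not among the 5, by the edgeR test of the difference of responses (KO minus WT, log2). The difference was 0.72 for Adam19 (adjusted p = 0.00604), 0.25 for Dock2 (adjusted p = 0.0180), 0.49 for Ide (adjusted p = 0.00321) and -0.38 for Tnf (adjusted p = 0.00763). Each rests on 3 libraries a group. The small RNA share moves with this contrast, at 6.67 to 8.01% of counts in KO UT and at most 6.93% in the other groups. With it as a covariate the differences were 0.60 for Adam19 (adjusted p = 0.693) and 0.0257 for Dock2 (adjusted p = 0.976). For Ide the difference was -0.0615 (adjusted p = 0.962) and for Tnf 0.0359 (adjusted p = 0.968), so none of the 4 passed the test in that fit. A covariate that moves with the contrast leaves the test less power, and Adam19 lost the test with a difference still at 0.60.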

How the results depend on the processing

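The KO against WT log2 fold changes of the expressed substrain genes ranged from 0.90 to 1.02 (Nnt, UT), 0.80 to 0.88 (Nnt, LPS), 0.48 to 0.90 (Wdfy1, UT), 0.30 to 0.51 (Wdfy1, LPS), -0.37 to 0.02 (Cyfip2, UT) and -0.40 to -0.17 (Cyfip2, LPS) over the alternatives. Their LPS responses kept their direction in all alternatives run. With the small RNA share as a covariate, Cyfip2 in UT became 0.0163, the difference of responses of Wdfy1 0.0376, of Ide -0.0615, of Tnf 0.0359 and of Loxl2 -1.04, and the UT values of Ide and Dock2 0.24 and 0.0120; calls over all genes numbered 111 in UT and 103 after LPS. The cause was not tested. Loxl2 in UT was -0.0561 without WT UT replicate 3 and 1.86 with the covariate. All genes called numbered 283 in UT, 194 after LPS, 5870 for the WT response and 5741 for the KO response. With a mean CPM of at least 1 they were 160 and 117 between genotypes. With no fold minimum they were 3700, 2223, 11386 and 11295, or 23.8%, 14.3%, 73.3% and 72.8% of genes tested. All 3 substrain genes were in each, which is no test between genotypes, since those contrasts took part in their choice. Substrain genes called were 0 in KO LPS against KO UT under upper-quartile scaling. With 1 library left out, 0 to 1 were called in UT, and all genes called were 234 to 302, 140 to 245, 5785 to 5969 and 5682 to 5830. With the replicate block they were 246, 164, 5827 and 5721, and the pairing by batch changed no call of a substrain gene. Entpd4 and Nlrp12 are limited by depth and, for Entpd4, by its identical copy.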
